A study of Mus musculus with 10 samples.

Results

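The genes that write, copy and remove 5-methylcytosine in DNA were followed through OKS reprogramming. The group holds 9 genes, Dnmt1, Uhrf1, Dnmt3a, Dnmt3b, Dnmt3l, Tet1, Tet2, Tet3 and Tdg, which were chosen by symbol from the 48476 genes of the count table, and all 9 were found there. Mouse embryonic fibroblasts (MEFs) of a CBA/CaJ X C57BL/6J cross, taken at E13.5, received Oct4, Klf4 and Sox2 (OKS) by retrovirus and were kept in iCD1, a chemically defined reprogramming medium. In the arm OKS + FoxO6 the forkhead factor FoxO6 was added, and in the control arm OKS + DsRed the red fluorescent protein DsRed was added in its place. Bulk RNA-seq gave 1 library for each of the 2 arms at days 0, 1, 3, 5 and 7, so there were 10 libraries and no replicate of an arm on any day. The 5 libraries of an arm may come from 1 infected culture, and the tests below then describe these 2 time courses.

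Cytosine methylation at CpG sites is written by the de novo methyltransferases Dnmt3a and Dnmt3b, with Dnmt3l as a partner that has no catalytic activity, and is copied onto the new strand at each round of replication by Dnmt1, which Uhrf1 brings to hemimethylated CpG. The Tet dioxygenases oxidise 5-methylcytosine, and the DNA glycosylase Tdg removes the more oxidised forms, which base excision repair then replaces with cytosine. Mouse pluripotent cells are known for high Dnmt3b, Dnmt3l, Tet1 and Tet2.

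The libraries held 1208379 to 2225750 expected counts (RSEM's estimate of the reads of a gene), and TPM is RSEM's level scaled for transcript length and library. Foxo6 was listed at 0.61 to 2.29 TPM in the OKS + DsRed libraries and at 762.11 to 1356 TPM in the OKS + FoxO6 libraries, day 0 included. The 11 fibroblast markers were all detected, and their summed TPM went from 5781 at day 0 to 1411 at day 7 in OKS + DsRed and from 6139 to 1819 in OKS + FoxO6. The 8 macrophage markers summed to 14.1 to 58.4 TPM in OKS + DsRed and 19.5 to 29.0 TPM in OKS + FoxO6, mostly Cd68 (7.95 to 52.6 TPM) and Lyz2 (up to 6.17 TPM), while Ptprc, Csf1r and Adgre1 stayed at or below 0.60 TPM and Aif1, Fcer1g and Tyrobp were at 0 in most libraries with single values of up to 3.29, 2.23 and 2.05 TPM. The 7 endothelial markers summed to 22.8 to 57.8 TPM in OKS + DsRed and 33.0 to 142 TPM in OKS + FoxO6, mostly the receptor genes Tek (16.8 to 104 TPM) and Kdr (1.23 to 44.6 TPM), both higher with FoxO6 from day 3 on. Of the other endothelial markers, Pecam1 reached 5.73 TPM and Cldn5 2.28 TPM, both at day 7 of OKS + DsRed, Esam reached 3.21 TPM at day 7 of OKS + FoxO6, and Emcn and Cdh5 stayed at or below 0.26 and 1.24 TPM. The part of such cells in the results was not tested. The mean transcript length, weighted by TPM, was shortest at day 0 of OKS + DsRed (1871 bases) and at day 7 of OKS + FoxO6 (1743 bases), against 1920 to 2035 bases in the others. Tet1, Tet2, Tet3, Dnmt3a and Dnmt1 have long transcripts, so results on them are also given without these 2 libraries or with size factors set within 10 bins of gene length. In bulk RNA, fewer cells of a type and less RNA per cell cannot be told apart.

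By mean TPM over the 10 libraries, Dnmt1 was the most abundant of the 9 (117 TPM), followed by Uhrf1 (89.6), Tet2 (65.9), Tdg (51.3), Dnmt3a (33.5), Tet3 (16.5), Dnmt3b (3.78) and Tet1 (3.07), with Dnmt3l at 0. The ranges of neighbours in this order overlapped, also for Dnmt3l and Tet1 once the level that a count of 0 allows is taken in. The order also changed with arm and day. Tet2 was at 7.19 TPM at day 0 of OKS + DsRed, below Tdg, Dnmt3a and Tet3, and at 98.7 TPM at day 5 of OKS + FoxO6, above Uhrf1 (72.5 TPM). The plot of levels by day shows the course of each.

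**Figure D1:**
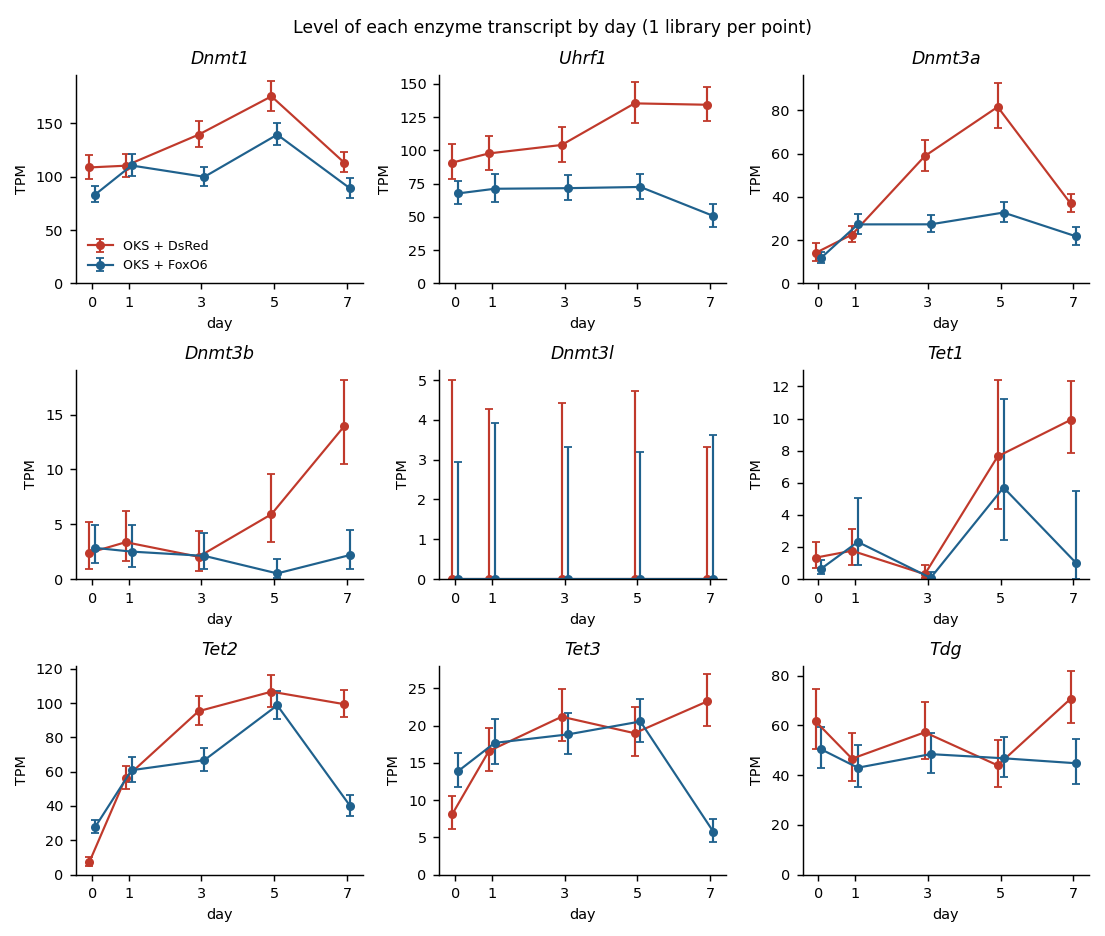
TPM of the 9 genes (y axes, linear from 0) against day (x axes) in OKS + DsRed (red) and OKS + FoxO6 (blue), 1 library per point, with 95% exact Poisson intervals of the counts as bars, which cover counting error only. Uhrf1 lies lower with FoxO6 on each day, Dnmt3b and Tet1 rise late in OKS + DsRed, and Dnmt3l is at 0 throughout.

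The first comparison asked whether the enzymes differed between the arms over the whole course. Uhrf1 and Dnmt3a were lower with FoxO6, and the other enzymes that could be tested had negative values that did not pass the test, of which Tet3 turned to 0.05 without day 7 and Tdg to 0.04 without the 2 libraries of short mean transcript. The shift between the arms came from a quasi-likelihood fit in edgeR with terms for day and arm on the rounded counts, with Benjamini-Hochberg adjustment over 10977 genes. Of the 9 enzymes, 6 had enough reads to enter the fit, 2 of these were called lower and 0 higher. Of all genes tested, 7.13% were called lower and 6.93% higher. The median shift of the 6 was -0.31 on the log2 scale, against -0.02 over all genes, and it was -0.50 without day 0 and -0.21 without day 7.

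Uhrf1 (ENSMUSG00000001228; GRCm38, chromosome 17, 56303321 to 56323486, plus strand), the reader of hemimethylated CpG, had the largest fitted shift of the 6. Its level in OKS + DsRed was 90.9, 97.7, 104, 135 and 134 TPM at days 0, 1, 3, 5 and 7. In OKS + FoxO6 it was 67.7, 71.2, 71.6, 72.5 and 50.8 TPM on the same days. The highest FoxO6 library was thus below the lowest DsRed library, which held for no other of the 9 genes and for 1.29% of 14837 genes with a mean of at least 1 TPM. The opposite order, each FoxO6 library above each DsRed library, held for 0 of the 9 and for 1.96% of those genes. Uhrf1 was lower with FoxO6 by 0.79 on the log2 scale (-0.79 ± 0.15 SE, edgeR adjusted p = 0.00552). In CPM (counts scaled to library size by TMM), the DsRed library held 1.50 times as much at day 0, with a 95% exact counting interval of 1.24 to 1.82, and 2.59 times as much at day 7 (2.13 to 3.17). The shift stayed between -0.87 and -0.66 and past the threshold in the 12 alternative fits, also without the 2 libraries of short mean transcript (-0.67, adjusted p = 0.0111).

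Dnmt1 (ENSMUSG00000004099; chromosome 9, 20907209 to 20959888, minus strand), the maintenance methyltransferase, was at 109, 110.3, 139, 175 and 113 TPM in OKS + DsRed. With FoxO6 it was at 83.3, 110.5, 99.9, 139 and 89.03 TPM. Both arms were highest at day 5, and the arms overlapped. The fitted shift was -0.32 ± 0.11 (SE), with an edgeR adjusted p of 0.0863, and it missed the threshold in the 12 alternatives (-0.40 to -0.26). The CPM ratio of DsRed to FoxO6 had an interval above 1 on days 0, 3, 5 and 7, with ratios of 1.24 to 1.42, while at day 1 the ratio was 0.997 (0.873 to 1.14).

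Levels of genes that are active in S phase, when Dnmt1 and Uhrf1 act, were measured beside them. Of 20 S phase genes, which encode replication factors and enzymes of nucleotide supply, 20 had a negative shift. Their median was -0.47, against -0.02 over all genes. Called higher with FoxO6 were 0 and called lower 10, against 6.93% and 7.13% of all genes tested. Among the 10 were the helicase subunits Mcm2, Mcm3, Mcm4, Mcm5 and Mcm7, the polymerase alpha and primase genes Pola1 and Prim1, the licensing factor Cdc6 and the ribonucleotide reductase genes Rrm1 and Rrm2. Their call count fell to 2 without the 2 libraries of short mean transcript, to 0 without day 5 and to 1 without day 3, while the medians were -0.37, -0.40 and -0.48. It was 0 with no day term, 5 with effective length offsets or without day 0, and 6 without day 7. Set against the median log2 TPM of these 20 genes in its own library, Dnmt1 was 0.07 to 0.22 higher in FoxO6 than in DsRed on the log2 scale over the 5 days. On the same scale Uhrf1 was 0.18 higher in FoxO6 at day 0, 0.29 lower at day 1 (-0.29), 0.01 higher at day 3, and lower at day 5 (-0.42) and day 7 (-0.95). The part of the S phase genes in the Uhrf1 result was not tested.

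Dnmt1 and Uhrf1 also shared a promoter feature. The letters TTTCGCGC, a motif of the E2F factors that drive S phase genes, were searched on both strands of RefSeq promoter windows of GRCm38.p6, each 250 bases before to 50 after a start. They stood in 2 of the 16 windows of the 9 genes, 1 of Dnmt1 and 1 of Uhrf1, and in 0.323% of 32851 windows of all genes. The stretches are shown because these were the matches among the members, with the match in capitals (in Dnmt1 it reads on the opposite strand).
Dnmt1, chr9:20952824-20952853, minus strand: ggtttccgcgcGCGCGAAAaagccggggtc
Uhrf1, chr17:56304063-56304312, plus strand: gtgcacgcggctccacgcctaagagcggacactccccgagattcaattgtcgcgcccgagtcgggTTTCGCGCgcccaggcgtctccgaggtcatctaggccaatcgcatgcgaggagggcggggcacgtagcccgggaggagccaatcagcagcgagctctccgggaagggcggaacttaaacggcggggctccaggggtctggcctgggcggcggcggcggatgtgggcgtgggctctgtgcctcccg
The Dnmt1 match lies 219 bases before the start of its window's transcript, and it overlaps exons of 2 other annotated transcripts. The Uhrf1 match lies 185 bases before the start of its window's transcript, in the first intron of transcripts that start further upstream. A second E2F variant, TTTGGCGC, stood in the same Dnmt1 window, 34 bases after the start, and in 0.514% of all windows. TTTCCCGC (1.07% of all windows), the forkhead letters GTAAACA (3.65%) and the octamer ATGCAAAT (1.74%) were in none of the 16 windows, and the Klf letters CCACACCC (3.56%) were in 1 window, of Dnmt3l. None of these motifs overlapped another. The 16 windows held 2 to 57 CpG sites each, against a median of 7 in all windows, and the 57 belonged to Tet2. The 2 windows with TTTCGCGC, whose letters hold CpG, had 33 sites each. The 0.323% is thus not a share among windows alike in CpG.

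Dnmt3a (ENSMUSG00000020661; chromosome 12, 3806007 to 3914443, plus strand) was the main de novo enzyme in each library. In OKS + DsRed it was at 14.1, 22.6, 58.9, 81.6 and 37.0 TPM from 47, 145, 261, 248 and 306 reads. In OKS + FoxO6 it was at 11.9, 27.3, 27.3, 32.8 and 21.7 TPM from 86, 148, 194, 206 and 112 reads. The arms were alike at days 0 and 1 and apart from day 3. The decline in TPM from day 5 to day 7 in OKS + DsRed went with a change in effective length, the transcript length over which RSEM spreads the reads, from 4439 to 8504 bases, and in CPM the day 7 library held 0.910 times the day 5 level (0.767 to 1.08). The CPM ratio of DsRed to FoxO6 was 1.03 at day 0 (0.706 to 1.49), 1.08 at day 1 (0.853 to 1.37), 1.83 at day 3 (1.51 to 2.21), 1.85 at day 5 (1.53 to 2.24) and 2.29 at day 7 (1.84 to 2.87). The fitted shift was -0.66 ± 0.18 (SE, edgeR adjusted p = 0.0327). It kept its sign in the 12 alternatives and was past the threshold in 7, the fit without the 2 libraries of short mean transcript among them (-0.64, adjusted p = 0.0316). The call was lost without day 3 (-0.58, adjusted p = 0.139), without day 5 (-0.58, 0.150) and without day 7 (-0.53, 0.0542). It was also lost with effective lengths as offsets (-0.68, 0.0800) and without the day term (-0.74, 0.366).

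**Figure D2:**
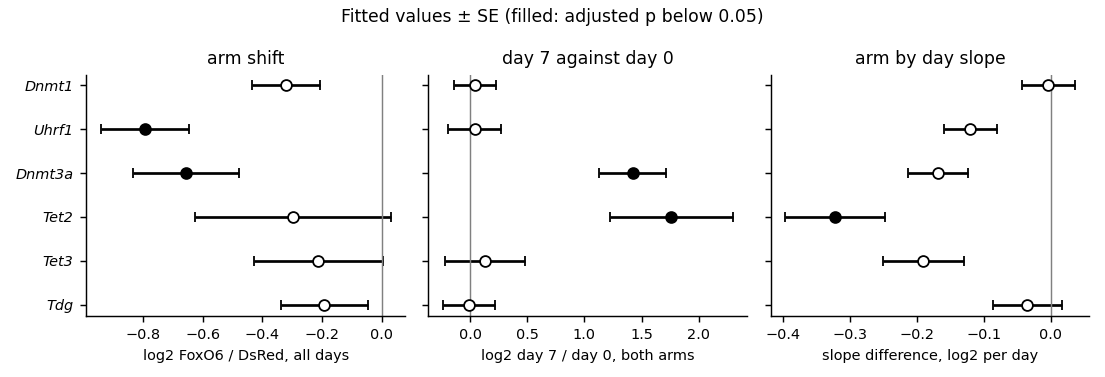
Fitted values of the 6 enzymes with enough reads (points, with SE as bars) for the shift between the arms, for day 7 against day 0 and for the difference in slope between the arms, each on a log2 x axis of its own range. Filled points are past an edgeR adjusted p of 0.05: Uhrf1 and Dnmt3a in the first panel, Dnmt3a and Tet2 in the second and Tet2 in the third.

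Dnmt3b (ENSMUSG00000027478; chromosome 2, 153649450 to 153687730, plus strand), the de novo enzyme that is abundant in pluripotent cells, was low until it parted late. In OKS + DsRed it was at 2.39, 3.36, 2.03, 5.91 and 13.9 TPM from 6, 10, 6, 16 and 55 reads. With FoxO6 the values were 2.84, 2.50, 2.11, 0.51 and 2.19 TPM from 12, 8, 8, 2 and 7 reads. The arms were within counting error of each other at days 0, 1 and 3. At day 5 the CPM of DsRed was 12.3 times that of FoxO6, with a counting interval of 2.89 to 110, and at day 7 it was 6.59 times (2.99 to 17.1). From day 0 to day 7 Dnmt3b CPM was 5.65 times higher in OKS + DsRed (2.44 to 16.1), and the same ratio was 0.809 in OKS + FoxO6 (0.270 to 2.23).

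Dnmt3l (ENSMUSG00000000730; chromosome 10, 78041947 to 78063622, plus strand) had 0 reads in the 10 libraries. A count of 0 allows up to 3 reads, which at its transcript length is 2.39 to 4.07 TPM depending on the library, so Dnmt3l was not detectable at this depth up to day 7. The 2-sided exact Poisson bars in the plot of levels reach higher, to 3.69 reads. Annotated relatives that could share reads with the Dnmt3 genes, Dnmt3c-ps, Dnmt3bos, Dnmt3aos and Dnmt3l-ps1, were also at 0, and Dnmt3a-ps1 held 0 to 3 reads.

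Tet1 (ENSMUSG00000047146; chromosome 10, 62804570 to 62908996, minus strand), the dioxygenase known from pluripotent cells, had 12, 11, 3, 16 and 78 reads in OKS + DsRed and 10, 6, 1, 8 and 1 reads in OKS + FoxO6. These were 1.33, 1.76, 0.30, 7.64 and 9.91 TPM in OKS + DsRed and 0.65, 2.31, 0.07, 5.70 and 0.98 TPM in OKS + FoxO6. The effective length of Tet1 ranged from 1136 to 13961 bases between libraries, so the reads are the safer measure and the rise in TPM to day 5 in OKS + FoxO6 rests on 8 reads spread over a short length. The day 5 value of OKS + DsRed likewise rests on 16 reads over 3059 bases. In CPM it was 1.12 times that of day 0 (0.495 to 2.58). The OKS + DsRed library of day 7 held the most reads. At day 5 the CPM of DsRed was 3.08 times that of FoxO6 (1.24 to 8.31), from 16 and 8 reads. At day 7 it was 65.4 times, with a counting interval of 11.4 to 2616, since the FoxO6 side is 1 read, and 4.01 times that of day 0 of its own arm (2.17 to 8.09). With size factors set within bins of gene length, the day 7 difference of FoxO6 minus DsRed in log2 CPM was -4.39.

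Dnmt3b and Tet1 were left out of the fits to all 10 libraries by the filter on low counts. In a fit without the filter, 4 of 8 enzymes were called lower and 0 higher, against 4.86% and 5.07% of 22663 genes. There the shift between the arms was -1.29 for Dnmt3b (edgeR adjusted p = 0.0193) and -2.10 for Tet1 (adjusted p = 1.30e-05). In that fit the SE of the Tet2 shift was 0.15, against 0.33 in the main fit. Spread particular to a gene thus counted for less, and these calls are less strict than the main ones. Tet1 passed the filter in the fit without day 3, where its shift was -2.16 and was not called (adjusted p = 0.0662). It passed there through the OKS + DsRed libraries only, the arm where it was higher. After that selection this fit is not a fair test of Tet1. The pluripotency genes were measured beside them. Summed over 12 such genes, among them Nanog, Esrrb and Tdh, OKS + DsRed held 5.55, 4.94, 81.8, 286 and 632 TPM on the 5 days, and OKS + FoxO6 held 0.71, 4.18, 24.6, 122 and 232 TPM. Nanog, the homeobox factor of the pluripotent state, was at 58.4 TPM at day 7 of OKS + DsRed and at 8.31 TPM at day 7 of OKS + FoxO6. Dppa3, which binds Uhrf1 in germ cells and early embryos, had 2 reads at day 7 of OKS + DsRed and 0 in the other libraries. The part of the cells that express these genes in the Dnmt3b and Tet1 values was not tested.

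Tet2 (ENSMUSG00000040943; chromosome 3, 133463679 to 133545139, minus strand) was the most abundant Tet gene from day 1 on in both arms. In OKS + DsRed it was at 7.19, 56.5, 95.2, 107 and 99.3 TPM from 28, 273, 490, 514 and 613 reads. The OKS + FoxO6 libraries had 27.7, 60.8, 66.7, 98.7 and 40.03 TPM from 195, 285, 411, 601 and 180 reads. With FoxO6 it thus started higher, met the control at day 1 and was lower at day 7. The CPM ratio of FoxO6 to DsRed was 3.70 at day 0 (2.48 to 5.71), 0.947 at day 1 (0.799 to 1.12), 0.618 at day 3 (0.540 to 0.706), 0.760 at day 5 (0.674 to 0.856) and 0.350 at day 7 (0.295 to 0.414). Over the 5 days the shift was -0.30 ± 0.33 (SE, edgeR adjusted p = 0.619). It was -0.66 without day 0 (adjusted p = 0.0566), -0.03 without day 7 (0.962) and -0.40 without the 2 libraries of short mean transcript (0.0866).

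Tet3 (ENSMUSG00000034832; chromosome 6, 83362373 to 83459084, minus strand) was at 8.14, 16.6, 21.2, 19.0 and 23.2 TPM in OKS + DsRed. In OKS + FoxO6 it was at 13.9, 17.7, 18.8, 20.5 and 5.77 TPM. The arms were within counting error of each other in CPM at days 0, 1, 3 and 5, and at day 7 the DsRed library held 2.68 times as much (1.98 to 3.69). The day 7 FoxO6 library is the one of shortest mean transcript. With size factors set within bins of gene length, the day 7 difference of FoxO6 minus DsRed in log2 CPM was -0.99 for Tet3 and -1.10 for Tet2.

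Tdg (ENSMUSG00000034674; chromosome 10, 82629828 to 82650799, plus strand), the glycosylase that excises oxidised methylcytosine, was the steadiest of the detected genes. It was at 61.7, 46.6, 57.2, 43.9 and 70.7 TPM in OKS + DsRed. With FoxO6 it was at 50.4, 43.0, 48.5, 46.8 and 44.8 TPM. The shift was -0.19 ± 0.15 (SE, edgeR adjusted p = 0.442). Its counts are uncertain, since RSEM splits reads between Tdg and the pseudogenes Gm9855 (9.6 to 31.8 reads in a library) and Tdg-ps (1.12 to 7.80 reads).

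The second comparison asked how the enzymes moved from day 0 to day 7 in both arms together, in the same edgeR fit. Dnmt3a and Tet2 rose, 2 of 6, and 0 fell, while 11.2% of all genes tested were called higher and 10.1% lower. Dnmt3a rose by 1.42 ± 0.29 on the log2 scale (SE, adjusted p = 0.00500) and Tet2 by 1.76 ± 0.54 (adjusted p = 0.0384). Dnmt1 (0.04), Uhrf1 (0.04), Tdg (-0.01) and Tet3 (0.13) had adjusted p of 0.835 to 0.984. The arms contributed unequally. Tet2 CPM at day 7 was 13.5 times that of day 0 in OKS + DsRed (9.25 to 20.5) and 1.28 times in OKS + FoxO6 (1.04 to 1.58), and Dnmt3a was at 4.02 times (2.95 to 5.58) and 1.81 times (1.35 to 2.42). Between days 0 and 1 the CPM of Tet2 rose 7.35-fold in OKS + DsRed (4.97 to 11.3), against 1.88-fold in OKS + FoxO6 (1.56 to 2.27). Without the 2 libraries of short mean transcript, of which day 0 of OKS + DsRed is 1, the fitted rise was 1.47 for Tet2 (adjusted p = 0.00949) and 1.40 for Dnmt3a (0.0313). The Tet2 call was lost in DESeq2 (adjusted p = 0.114), without the arm term (0.0844) and without day 1 (0.0694), day 3 (0.0540) or day 5 (0.0619). The Dnmt3a call was lost with effective lengths as offsets (0.0547) and without the arm term (0.0686).

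The third comparison asked whether the course over days differed between the arms, as a difference in slope per day. Tet2 was called, 1 of 6 enzymes, with a lower slope in OKS + FoxO6. Of all genes tested, 0.765% were called with a lower slope and 1.21% with a higher one. The Tet2 difference was -0.32 ± 0.07 per day (SE, edgeR adjusted p = 0.0471). Without the libraries of day 0 of OKS + DsRed and day 7 of OKS + FoxO6 it was -0.07 (adjusted p = 0.732). Without day 0 it was -0.20 (0.182) and without day 7 it was -0.30 (0.314). With size factors in bins of gene length it was -0.24 (0.0758), with effective length offsets -0.29 (0.101) and in DESeq2 -0.36 (0.179), so the call was lost there too. Dnmt3a (-0.17, adjusted p = 0.0804), Tet3 (-0.19, 0.120) and Uhrf1 (-0.12, 0.135) missed the threshold, and Dnmt1 (0.976) and Tdg (0.762) had slopes of -0.00341 and -0.03.

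On single days the arms were compared as differences in log2(TPM + 1), which understates the change of low genes, with a 2-fold difference as the limit and no test. At day 0 Tet2 was past it, higher with FoxO6 (1.81), as were 10.4% of 14837 genes, and 0 enzymes were past it on the lower side (6.32% of genes). At day 1 it was 0 of 8 enzymes in either direction (7.95% of genes higher, 9.33% lower). At day 3 Dnmt3a was past it, lower with FoxO6 (-1.08), with 11.7% of genes lower and 8.16% higher, but no enzyme was past it in CPM with a prior count of 2. At day 5 Dnmt3a (-1.29) and Dnmt3b (-2.19) were past it on the lower side (11.4% of genes lower, 10.2% higher). In CPM with that prior count it was Dnmt3b (-2.56) and Tet1 (-1.33), while Dnmt3a was at -0.84, against 9.62% of genes lower. At day 7 it was 5 of 8 enzymes, Tet1 (-2.46), Dnmt3b (-2.23), Tet3 (-1.84), Uhrf1 (-1.39) and Tet2 (-1.29), against 16.3% of genes lower and 8.25% higher. The remaining 3, Dnmt3a (-0.74), Tdg (-0.65) and Dnmt1 (-0.34), were also lower with FoxO6 in TPM at day 7, and the median difference of the 8 was -1.34 against -0.14 over all genes. In CPM the counting interval of each of the 8 lay on the lower side of 1 at day 7, as the plot of daily ratios shows, as did that of 19.9% of genes, while 18.2% lay on the higher side. In CPM with that prior count Dnmt3a was past 2-fold as well (-1.17), which made 6 (11.8% of genes lower). With size factors in bins of gene length 4 were past it (11% of genes lower), without Tet3 (-0.99) and Dnmt3a (-0.78), and Dnmt1 turned to the higher side (0.10).

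**Figure D3:**
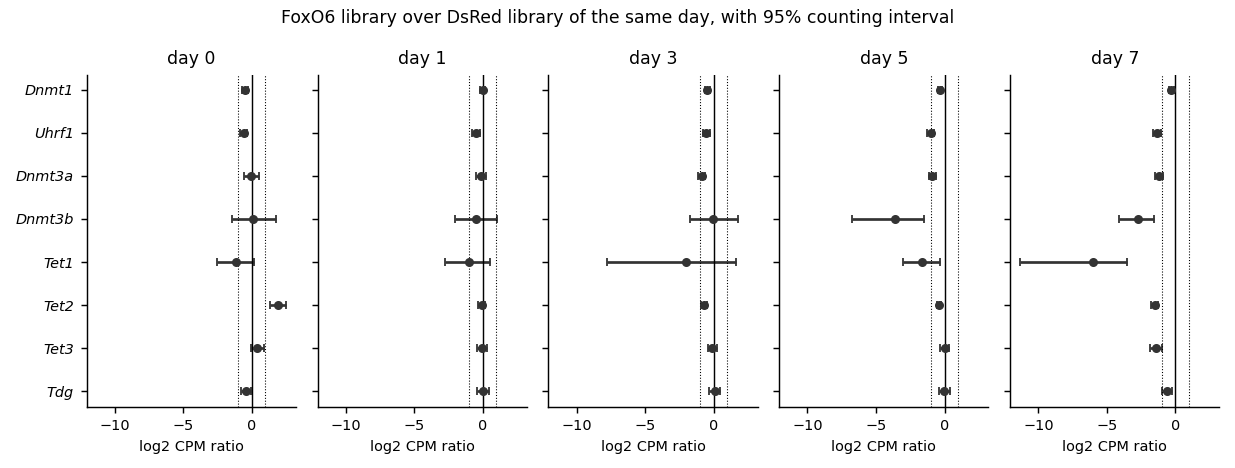
Log2 ratio of the CPM of OKS + FoxO6 to OKS + DsRed (x axes) for 8 enzymes (rows) on each day (panels), with 95% exact counting intervals and dotted lines at 2-fold. Tet2 is to the right at day 0, most enzymes are near 0 at day 1, and the 8 are to the left at day 7 (Dnmt1 turns to the right with size factors in bins of gene length), where the wide interval of Tet1 rests on 1 read.

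The make-up of each family within a library does not depend on library size. Dnmt3a made up 72.6% to 98.5% of the summed TPM of the Dnmt3 genes. In OKS + DsRed, Dnmt3b held 14.5% of it at day 0 and 27.4% at day 7, against 19.2% and 9.16% with FoxO6. In counts the shares at day 7 were 15.2% (55 of 361 reads, exact binomial interval 11.7 to 19.4%) and 5.88% (7 of 119 reads, 2.40 to 11.7%). At day 0 they were 11.3% (4.27 to 23.0%) and 12.2% (6.49 to 20.4%), intervals that overlap those of day 7. Tet3 and Tet2 made up 48.9% and 43.2% of the Tet genes at day 0 of OKS + DsRed, and from day 1 on Tet2 made up 75.0% to 85.6% in both arms. At day 0 of OKS + FoxO6 Tet2 was already at 65.6%. In counts, Tet2 was 28.9% at day 0 of OKS + DsRed (20.1 to 39.0%) and 56.2% at day 0 of OKS + FoxO6 (50.8 to 61.5%), intervals that do not overlap. Tet1 was 8.97% of the Tet reads at day 7 of OKS + DsRed (78 of 870, 7.15 to 11.1%) and 0.422% at day 7 of OKS + FoxO6 (1 of 237, 0.0107 to 2.33%).

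**Figure D4:**
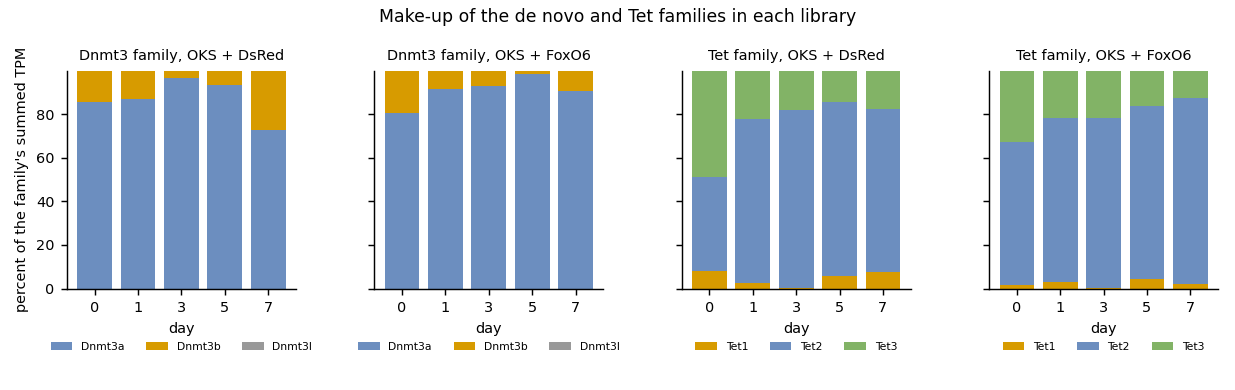
Percent of the summed TPM of the Dnmt3 genes (2 left panels) and of the Tet genes (2 right panels) held by each member (stacked bars) on each day in each arm, 1 library per bar. Dnmt3b holds 14.5% at day 0 and 27.4% at day 7 of OKS + DsRed, and Tet2 holds most of the Tet sum from day 1 on.

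Genes that work with the enzymes were taken from fixed lists. Among 12 tested cofactors and guides of methylation, the median shift was -0.27, against -0.02 over all genes. While 6.93% of all genes tested were called higher and 7.13% lower, 0 of the 12 were called higher and 3 lower with FoxO6. They were Zfp57, a zinc finger protein that keeps methylation at imprinted regions (-0.99 ± 0.15 SE, edgeR adjusted p = 0.00160), Cdca7, the partner of the remodeller Hells (-0.86, 0.0269), and Setdb1, a histone H3K9 methyltransferase (-0.54, 0.0392). Zfp57 was at 91.6, 109, 184, 177 and 195 TPM in OKS + DsRed and at 55.2, 59.9, 66.7, 109 and 91.9 TPM in OKS + FoxO6, lower on each day. Zfp57 also rose from day 0 to day 7 (1.13 ± 0.23 SE, edgeR adjusted p = 0.00539), and this rise was not called without the 2 libraries of short mean transcript (0.92, 0.139) or with no arm term (0.243). The shift of Cdca7 missed the threshold without them as well (-0.85, 0.0886), with effective length offsets (-0.60, 0.142) and with no day term (0.221). The count of 3 was 1 without day 3, without day 5 or with effective length offsets, and 0 with no day term, where Zfp57 was also lost (0.0962). It was 2 without the 2 libraries of short mean transcript or without day 7. With length bins or without day 0 it was 4, and with no filter on low counts 5 of 13. Setdb1 was past the threshold without day 0 (0.0112) and not when another day was left out (0.0704 to 0.156). Hells, the remodeller that opens nucleosomes to Dnmt3 and Dnmt1, had a lower slope in OKS + FoxO6 (-0.20 per day, adjusted p = 0.0475), which was lost without the 2 libraries of short mean transcript (-0.16, 0.505), with length bins (-0.17, 0.0669), in DESeq2 (-0.20, 0.276), with day as rank (0.0509) and when any 1 day was left out (0.0635 to 0.383). With effective length offsets it was called (-0.34, 0.0171). Hells went from 23.8 to 44.4 TPM between day 0 and day 7 in OKS + DsRed and from 34.9 to 9.81 TPM in OKS + FoxO6.

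Of 14 tested partners in base excision and demethylation, 2 were called higher and 2 lower with FoxO6, with a median of -0.10. Over all genes tested, 6.93% were called higher and 7.13% lower, with a median of -0.02. Gadd45a, a stress-induced gene linked to demethylation and a known FoxO target, had the largest shift (2.34 ± 0.19 SE, edgeR adjusted p = 6.29e-05). It was at 27.9, 21.6, 33.3, 59.0 and 52.4 TPM in OKS + DsRed and at 204, 188, 227, 199 and 180.0 TPM in OKS + FoxO6, with no overlap between the arms. Each FoxO6 library was above each DsRed library for 1.96% of 14837 genes. Ogt, the glycosyltransferase that binds Tet2 and Tet3, was also higher (0.50, adjusted p = 0.0363), and it rose from day 0 to day 7 (1.55, 0.000634). The higher call of Ogt was lost with effective length offsets (adjusted p = 0.0784), with no day term (0.596) and without day 0 (0.0675), day 1 (0.121), day 3 (0.144) or day 5 (0.147). Parp1, the nick sensor of excision repair, was lower with FoxO6 (-0.62 ± 0.10 SE, edgeR adjusted p = 0.00325) and rose from day 0 to day 7 (0.92, 0.00227). These calls were lost with no day term (0.202) and with no arm term (0.153). Ung, the uracil glycosylase, was lower with FoxO6 (-1.18, adjusted p = 0.0423), from 8 to 54 reads in a library, and missed the threshold without the 2 libraries of short mean transcript (-0.79, 0.238), in DESeq2 (0.0535), with effective length offsets (0.208), with no day term (0.146) and without day 0, 3, 5 or 7 (0.0744 to 0.134).

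Of 10 tested genes of methyl donor and oxoglutarate metabolism, 2 were called lower with FoxO6, methionine synthase Mtr (-0.67, edgeR adjusted p = 0.00730) and mitochondrial isocitrate dehydrogenase Idh2 (-0.53, 0.0414), with a median of -0.07, and without day 3 the adjusted p were 0.0563 and 0.173. The shares over all genes tested were 7.13% lower and 6.93% higher, with a median of -0.02. With no day term Mtr was lost as well (0.334). The Idh2 call was also lost in DESeq2 (0.0527), with effective length offsets (0.0915), with no day term (0.300) and without day 0, 1 or 5 (up to 0.158). Of 8 methyl-CpG readers 0 were called between the arms in the edgeR fit (4 positive, 4 negative, median 0.03) and 0 in DESeq2, while 2, Mbd2 and Zbtb4, had an unadjusted edgeR p under 0.05. With 7.13% of all genes called lower and 6.93% higher, 0 of 8 does not set the readers apart. Mbd2 was called higher with no filter on low counts (0.50, adjusted p = 0.0411), with length bins (0.46, 0.0403), without the 2 libraries of short mean transcript (0.64, 0.0246) and without day 0 (0.56, 0.0329). Zbtb38 rose from day 0 to day 7 (0.77, adjusted p = 0.0471). This call was lost in 7 of 10 alternatives, namely with DESeq2's size factors (0.0533), in DESeq2 (0.117), with no arm term (0.0923), without those 2 libraries (0.140) and without day 1, 3 or 5 (0.0722 to 0.0773). The plot of shifts by list sets these beside the enzymes and the S phase genes.

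**Figure D5:**
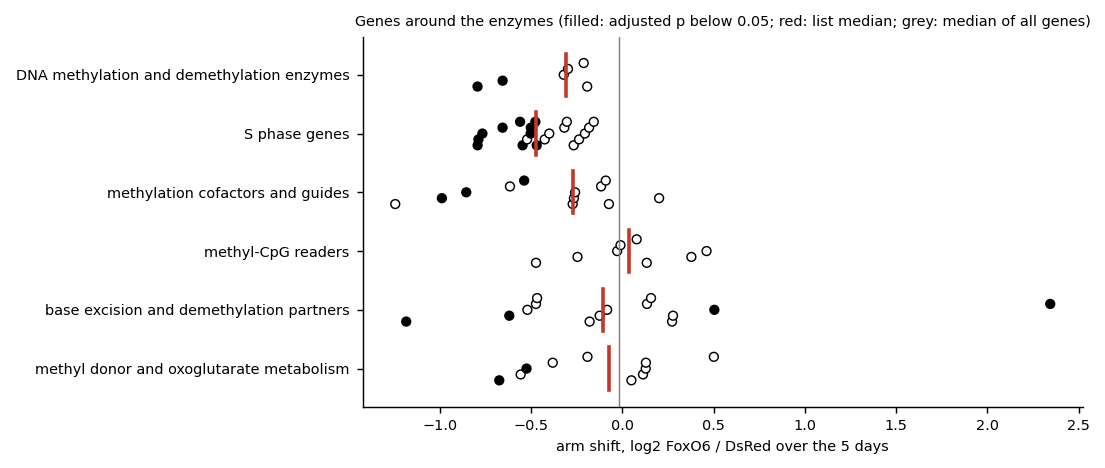
Fitted shift between the arms on a log2 scale (x axis, FoxO6 over DsRed) of each tested gene of 6 lists (rows, points spread vertically only for legibility), with the list median in red and the median of all genes in grey. Filled points are past an edgeR adjusted p of 0.05: the S phase list has its 20 genes on the left, the readers lie on both sides, and the far point on the right is Gadd45a.

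Germline genes that promoter methylation keeps silent in somatic cells served as a distant readout. Of 16 such genes, 5 had no count in any library, 14 had a mean below 1 TPM and 0 had enough reads for the fits. Their summed TPM was 2.21 to 14.9 in OKS + DsRed and 3.27 to 7.99 in OKS + FoxO6, from 2 to 23 and 8 to 15 reads. The highest single value was that of the synaptonemal gene Sycp1 at day 5 of OKS + DsRed, 12.0 TPM from 8 reads.

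The genes whose log2(TPM + 1) ran most like each enzyme over the 10 libraries were sought among 11422 genes with a mean of at least 5 TPM, as a description. The points share library and depth. For Dnmt1 these were Parpbp (Pearson's r = 0.933), Brca1 (0.925) and Zbed3 (0.925). For Uhrf1 they were Rcc2 (r = 0.969), Ptprs (0.950) and Cbl (0.948). For Dnmt3a they were Wars (0.980), Slc12a7 (0.963) and Cnnm4 (0.958). For Tet2 they were Dcp1a (0.984), Ceacam1 (0.976) and Chd2 (0.975), and for Tet3 they were Vps13b (0.991), Ncor1 (0.984) and Tcf4 (0.974). For Tdg they were Gm28625 (0.953), Crls1 (0.910) and Plekhf2 (0.898).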

How the data were processed

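The authors aligned the reads of the 10 libraries with RSEM and Bowtie2 (mouse GENCODE M13, mm10) and deposited unnormalized expected counts, TPM and effective lengths per library. The expected counts of the series table equal those of the library files. Expected counts were rounded, genes were kept by filterByExpr, and edgeR 4.0.16 (R 4.3.3) with TMM fitted day and arm. DESeq2 1.42.0 was an alternative. Python 3.11.15 with scipy 1.17.1 gave the intervals at 95%, which cover counting error only. Daily differences used a pseudocount of 1 and genes with a mean of at least 1 TPM. The fits were tested on simulated data. Gene positions are those of GENCODE M21. The enzymes, lists, motifs and tests were chosen with earlier results of these data known. Genes named are the 9 enzymes, list genes past the threshold and those most like an enzyme. Others, such as Nanog, Dppa3 and Sycp1, were named after their values were seen. Whether the library kit kept strand is not given in the sources used here, so antisense reads cannot be told apart.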

Additional observations from a re-analysis of the deposited data

Results flagged for a closer look

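For 2 genes the course over days differed between the arms by the interaction term of the edgeR fit. The slope difference of FoxO6 minus DsRed was -0.32 log2 units per day for Tet2 (SE 0.07, adjusted p = 0.0471) and -0.20 for Hells (SE 0.05, adjusted p = 0.0475). Without the 2 libraries of short mean transcript the differences were -0.07 for Tet2 (adjusted p = 0.732) and -0.16 for Hells (0.505), with size factors in bins of gene length they were -0.24 (0.0758) and -0.17 (0.0669), and with effective length offsets they were -0.29 (0.101) and -0.34 (0.0171), where Hells was still called. With 1 library per arm and day, no library could be set against others of its group.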

How the results depend on the processing

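No paired analysis was possible because the labels give no replicate numbers to pair by, beyond the day term, which matches the arms by day in the main fits. The fitted shift of Uhrf1 kept its sign and call in the 12 alternatives. Genes called for the shift, 1544 in all, were 168 with no day term and 663 to 1569 when a day was left out, and enzymes called, 2, were 4 with no filter, 1 with effective length offsets or no day term and 1 to 2 when a day was left out. For day 7 against day 0, the 2332 genes called became 1148 with no arm term and 1093 without the 2 libraries of short mean transcript, and the 2 enzymes became 1 in DESeq2 or with effective length offsets, 0 with no arm term and 1 when a day was left out. For the slope, the 217 genes called became 126 in DESeq2, 628 with no filter, 110 with effective length offsets and 80 to 233 when a day was left out, and the 1 enzyme became 0 in DESeq2, with effective length offsets, with length bins and without those 2 libraries, 3 with no filter and 0 to 2 when a day was left out. The cause was not tested, except that fewer libraries entered the fits that leave some out. With no filter the SE of the Tet2 shift was 0.15, against 0.33 in the main fit, so calls there were less strict.

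A minimum mean of 5 TPM tests fewer genes, 11422, and leaves out Dnmt3b and Tet1. With it 1359, 1337, 1591, 1762 and 2192 genes were past 2-fold at days 0, 1, 3, 5 and 7, and 1 enzyme at day 5 and 3 at day 7. At day 3 it was 2 enzymes with a pseudocount of 0.1, both lower with FoxO6, against 2080 of 14837 genes lower and 1548 higher. It was 0 at day 3 in CPM (1413 genes lower, 930 higher) or with length bins (1427 and 930). At day 0 it was 2 with length bins, Tet2 higher and Tet1 lower, against 1077 genes higher and 730 lower. At day 7 it was 6 in CPM and 4 with length bins, against 1757 and 1630 genes lower. In counts, the shares were 15.2% for Dnmt3b at day 7 of OKS + DsRed, 0.422% for Tet1 at day 7 of OKS + FoxO6, and 28.9% and 56.2% for Tet2 at day 0 of OKS + DsRed and OKS + FoxO6. The TPM shares of Tet2 at day 0, 43.2% and 65.6%, became 84.4% and 97.7% with Tet3 left out.

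These fitted log2 values changed sign, none of them called. The shift of Tet3 was -0.3462 to 0.0521 when a day was left out, and that of Tdg was 0.0357 without the 2 libraries of short mean transcript. Day 7 against day 0, Tdg was at 0.0344 with effective length offsets and at 0.518 without those 2 libraries. The slope of Dnmt1 was 0.0063 with effective length offsets, 0.0438 with length bins, 0.0035 with day as rank and -0.0418 to 0.0299 when a day was left out. The slope of Tet3 was 0.0142 without those 2 libraries, and that of Tdg was -0.1044 to 0.0652 when a day was left out.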
